A study of Sus scrofa with 16 samples.

Results

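Open chromatin was described at the genes that build the nephron, the filtering unit of the kidney. The set held SIX2, PAX2, PAX8, LHX1, SALL1, EYA1, OSR1 and WT1, which are transcription regulators of the embryonic kidney, and NPHS1, which encodes nephrin of the podocyte slit diaphragm. The genes were chosen by name, and every peak was taken that overlapped a promoter (2.2 kb upstream to 500 bp downstream of an annotated transcription start site) or the gene with 10 kb either side. PAX8 was not analysed here, so 8 of the 9 genes were described, out of 19560 protein-coding genes. They held 96 of the 133254 peaks listed for newborn kidney.

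The nephron arises from a pool of progenitor cells in the cap mesenchyme that surrounds the tips of the branching ureteric bud. SIX2 keeps these cells in the progenitor state, with SALL1, EYA1, OSR1, PAX2 and WT1 in the same network, and LHX1 acts when the cells turn into an epithelial vesicle. WT1 persists in the podocyte, the cell that wraps the glomerular capillary, where nephrin forms the filter. In pigs nephrons still form for some time after birth.

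Accessibility was measured with ATAC-seq, in which a transposase cuts open DNA, on nuclei from frozen whole tissue of female domestic crossbred pigs that carry no engineered allele and received no treatment. Each of 8 groups had 2 libraries, from newborn kidney, heart, liver, lung, skeletal muscle and spleen (day 0 in the labels), from suckling liver (day 28) and from adult liver (day 180). The pigs of an age were full sibs by the study's methods, and all newborn tissues came from the same 2 pigs. The 6 newborn lists therefore share their animals. Whole kidney mixes all its cell types, and fewer cells of a type cannot be told apart from less open chromatin per cell.

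Each group was represented by 1 list of peaks matched between its 2 libraries, so a count of peaks has no replicate error, and no difference between groups was tested. A list gives for every peak the −log10 p of each replicate, the strength of the peak call, and the irreproducible discovery rate (IDR), a measure of how poorly the replicates rank the peak alike. The values of the replicates are given for each peak, but they depend on the depth of each library, which the lists do not hold. The smaller −log10 p was therefore turned into a percentile within its own list. Kidney had the longest newborn list, and the others ran from 57126 peaks in skeletal muscle to 120012 in newborn liver. A peak missing from a list was not called there, which is no measurement of closed chromatin. A kidney-only peak is a kidney peak that shares not even 1 bp with any peak listed for the other 5 newborn tissues. Of 5 kidney markers, 4 had a promoter peak in the kidney list, and UMOD, which encodes uromodulin, had none.

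The sequences at the centre of 7 kidney peaks are shown because these peaks carry the results below: the promoter peaks of PAX2, LHX1 and NPHS1, which had none in any other list, the strongest kidney-only peak, the kidney-only peak at KIRREL2, and the strongest and weakest promoter peaks of the set. The weak kidney-only promoter peak of OSR1 is not shown. Each run covers 181 bases around the summit, read from Sscrofa11.1 on the coding strand of the member gene, and capitals mark CpG dinucleotides. The windows are chr14:111821143-111821323 (+) upstream of PAX2, chr14:111846760-111846940 (+) in a PAX2 intron, chr12:38449538-38449718 (+) upstream of LHX1, chr6:45271981-45272161 (−) just upstream of NPHS1, and chr6:45275513-45275693 (−) upstream of NPHS1 and of its neighbour KIRREL2. The last 2 are chr6:33732159-33732339 (+) in the first part of SALL1, annotated as intron, and chr3:95459505-95459685 (+) upstream of SIX2. None of the windows overlaps an annotated exon.
PAX2 upstream: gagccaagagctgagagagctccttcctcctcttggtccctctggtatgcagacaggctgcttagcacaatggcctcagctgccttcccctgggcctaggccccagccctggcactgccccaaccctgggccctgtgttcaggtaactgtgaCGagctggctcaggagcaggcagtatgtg
PAX2 intron: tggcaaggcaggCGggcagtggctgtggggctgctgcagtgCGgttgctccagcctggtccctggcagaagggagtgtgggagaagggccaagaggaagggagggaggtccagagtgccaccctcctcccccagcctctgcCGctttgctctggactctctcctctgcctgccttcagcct
LHX1 upstream: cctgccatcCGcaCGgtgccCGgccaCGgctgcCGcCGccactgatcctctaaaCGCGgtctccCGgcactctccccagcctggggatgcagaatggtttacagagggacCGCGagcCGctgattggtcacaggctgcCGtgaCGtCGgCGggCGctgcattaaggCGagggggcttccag
NPHS1 start: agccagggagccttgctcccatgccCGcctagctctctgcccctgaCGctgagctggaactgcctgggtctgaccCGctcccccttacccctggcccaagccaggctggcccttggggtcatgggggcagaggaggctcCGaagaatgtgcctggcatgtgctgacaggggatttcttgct
KIRREL2 start: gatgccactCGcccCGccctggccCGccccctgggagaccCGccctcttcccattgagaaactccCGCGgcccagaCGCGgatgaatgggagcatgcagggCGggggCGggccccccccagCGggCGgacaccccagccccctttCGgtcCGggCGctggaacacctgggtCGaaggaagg
SALL1 start: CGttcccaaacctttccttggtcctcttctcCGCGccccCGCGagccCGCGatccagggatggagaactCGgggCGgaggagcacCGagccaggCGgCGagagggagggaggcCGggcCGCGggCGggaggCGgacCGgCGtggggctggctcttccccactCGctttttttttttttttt
SIX2 upstream: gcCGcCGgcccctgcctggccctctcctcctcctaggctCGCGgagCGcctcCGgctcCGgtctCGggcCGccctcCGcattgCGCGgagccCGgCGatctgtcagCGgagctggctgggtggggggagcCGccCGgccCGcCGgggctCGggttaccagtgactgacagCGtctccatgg

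The windows differed in base composition. The SIX2, SALL1 and LHX1 windows held 21, 20 and 18 CpGs, and the median over kidney promoter peaks was 14. The PAX2 upstream window held 1 CpG, the PAX2 intron window 3 and the NPHS1 window 4, near the median of 3 in kidney peaks outside promoters. Kidney-only promoter peaks of all genes had a median of 4 CpGs. Only the SALL1 and KIRREL2 windows held a match to a searched motif. It was the WT1 consensus GCGGGGGCG, at position 101 of the KIRREL2 window and, read as CGCCCCCGC on the other strand, at position 34 of the SALL1 window, counted from the left end.

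All 8 genes had a promoter peak in newborn kidney, where 75.1% of all protein-coding genes had one. The other lists held promoter peaks at fewer of them. In heart 5 of the 8 had one against 67.9% of all genes, in lung 4 against 70.4%, in spleen 4 against 68.8% and in skeletal muscle 3 against 61.4%. In liver the count was 3 in newborns against 73.5% of all genes, 3 in sucklings against 74.8%, and 1 in adults against 69.7%. The single gene with an adult liver promoter peak was SALL1. None of the 8 genes had a promoter peak in all 8 lists, as 56.7% of all genes did. PAX2, LHX1 and NPHS1 had a promoter peak in kidney and in none of the other 7 lists, a pattern shared by 1.53% of all genes.

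**Figure D1:**
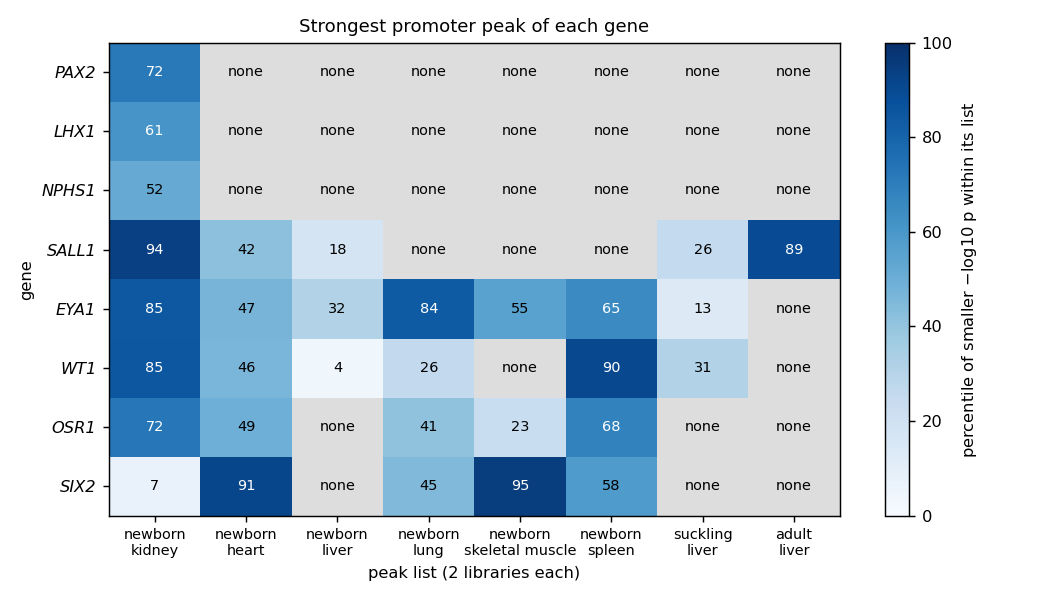
Strongest promoter peak of each gene (rows) in each of the 8 lists (columns), given as the percentile of its smaller −log10 p within that list, with "none" where no promoter peak was called. PAX2, LHX1 and NPHS1 have a value in kidney alone, and SIX2 is at percentile 6.65 in kidney and 94.9 in skeletal muscle.

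PAX2, a paired-box regulator needed for both the ureteric bud and the cap mesenchyme, had its kidney promoter peak at chr14:111821097-111821325, with the summit 1101 bp upstream of the nearest start site. The −log10 p was 11.5 in replicate 1 and 33.1 in replicate 2, which put the peak at percentile 71.8 of the kidney list with an IDR of 0.0316. The nearest peak of another newborn list lay 1512 bp away. With a promoter limited to 1000 bp upstream and 100 bp downstream, PAX2 was the 1 gene of the 8 without a kidney promoter peak, against 70.3% of all genes with one. A second kidney-only peak lay in an intron at chr14:111846361-111847015, 24511 bp downstream of the nearest start site. It was the strongest kidney-only peak of all 8 genes, with −log10 p of 24.8 and 46.4 in the replicates, percentile 89.3 and an IDR of 0.00117. PAX2 had 17 kidney peaks, of which 11 were kidney-only. The 11 included 9 further intronic peaks, at percentiles from 4.77 to 65.5. Spleen had no peak at PAX2, skeletal muscle 1, heart 3 and lung 3, while newborn, suckling and adult liver had 10, 11 and 7. The liver peaks included the group 3 to 5 kb upstream of the start site, where a kidney peak at chr14:111818446-111819100 reached −log10 p of 21.3 and 18.7. Of the 11 kidney-only peaks, 8 also had no counterpart in suckling or adult liver.

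LHX1, a LIM-homeodomain regulator of the renal vesicle, had its promoter peak at chr12:38449475-38449839, 1080 bp upstream of its start site, with −log10 p of 8.61 and 19.0. That was percentile 60.6 with an IDR of 0.105, so the peak was not kept at an IDR of 0.05. It was kept among the top 57126 peaks of each list. The gene spans 6.88 kb, and kidney had 7 peaks in and around it, 5 of them kidney-only. Per length of the locus this came to 18.6 kidney-only peaks per 100 kb, a density at percentile 99.96 of all protein-coding genes. PAX2 stood at 98.8, SIX2 at 97.6, WT1 at 93.2, NPHS1 at 86.7, OSR1 at 84.2 and EYA1 at 57.1. SALL1, with no kidney-only peak, stood at 22.6. The density runs high at short loci, and SIX2 reached its percentile with 2 weak kidney-only peaks. The 5 kidney-only peaks at LHX1 fell to 2 among the top 57126 peaks and to 0 at an IDR of 0.05, and ranking by replicate 2 or replicate 1 alone left 1 or 2. Their −log10 p ran from 5.27 to 19.0 over both replicates, and their percentiles from 30.8 to 60.6. The only peak near LHX1 shared by all 8 lists, chr12:38461224-38462453, lay at the promoter of the neighbouring gene AATF. It was also the strongest kidney peak of the locus, with −log10 p of 32.4 and 46.3. No region at LHX1 was called in another list without a kidney peak.

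NPHS1 is the gene of nephrin, a protein of the slit diaphragm made by podocytes. Its promoter peak, chr6:45271806-45272428, spanned the start site with the summit 179 bp upstream. The −log10 p was 9.05 and 7.14 in the replicates, which is percentile 51.5 with an IDR of 0.282. The nearest peak of another newborn list was 5858 bp away, but the peak was kept neither at an IDR of 0.05 nor among the top 57126 peaks. A second kidney-only peak, chr6:45275387-45275932, overlapped the promoter of KIRREL2, which encodes another slit diaphragm protein and lies head to head with NPHS1. It was weak, with −log10 p of 4.66 and 4.28 and percentile 14.4. The other 5 kidney peaks of the locus were shared with another newborn list, including chr6:45239349-45240528 at the promoter of the gene PRODH2. The strongest was intronic, at chr6:45264848-45265852, with −log10 p of 20.8 and 25.4, and was also called in newborn liver, spleen and suckling liver.

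SALL1, a zinc-finger regulator needed for ureteric bud outgrowth, had the strongest kidney promoter peak of the 8 genes. The peak at chr6:33731236-33732871 reached −log10 p of 34.3 and 43.8, percentile 93.5 and an IDR of 0.000776. Promoter peaks were also called in heart at percentile 41.7, in newborn liver at 17.7 and in suckling liver at 25.6. In these 3 lists the replicates were far apart, with −log10 p of 19.2 and 6.17 in heart, 4.41 and 35.1 in newborn liver, and 42.5 and 4.66 in suckling liver. Suckling liver had a second peak under the same kidney peak, chr6:33732438-33732898, just past the promoter edge, where both replicates were high at 25.4 and 41.5 (percentile 88.2, IDR of 0.00158). In adult liver the replicates were close, at 142 and 124, and the peak stood at percentile 89.2. Adult liver also had a second peak overlapping the same kidney peak, chr6:33732241-33732969, with 140.9 and 94.3 (percentile 84.8, IDR of 0.00141). Lung, skeletal muscle and spleen had no peak at SALL1. Kidney had 2 peaks there and neither was kidney-only, whereas suckling and adult liver had 6 each. All 6 adult liver peaks had an IDR of 0.05 or lower, against 2 of 6 in suckling liver and 0 of 4 in newborn liver.

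**Figure D2:**
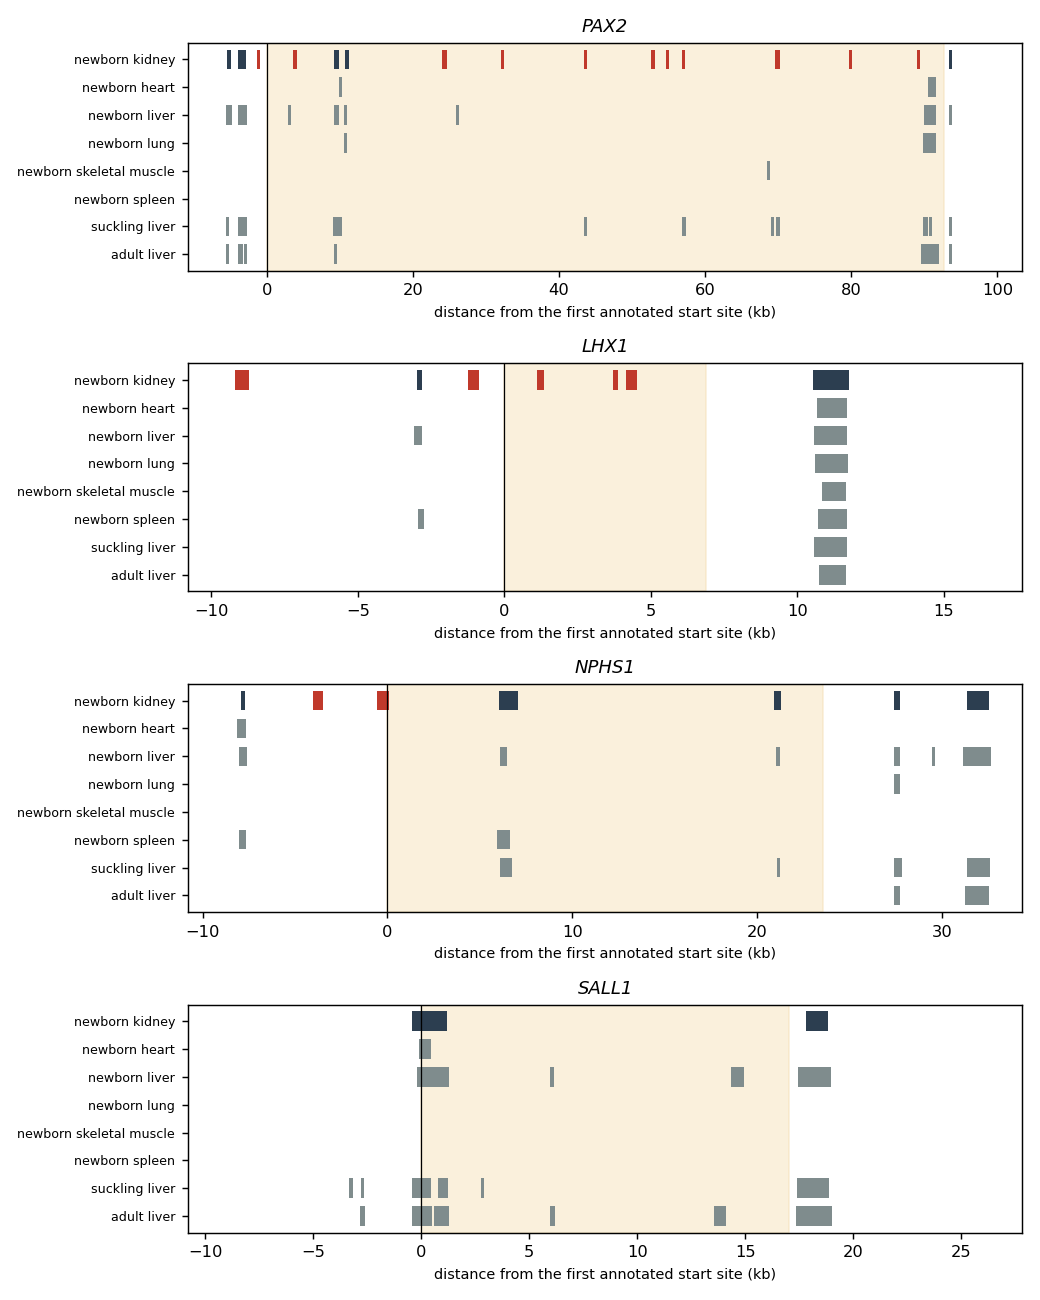
Peaks at PAX2, LHX1, NPHS1 and SALL1 in the 8 lists, by distance from the first annotated start site in the direction of transcription (kb), with the gene shaded, kidney-only peaks in red, other kidney peaks dark and other lists grey. Narrow peaks are drawn wider than scale so that they can be seen. Kidney-only peaks number 11 at PAX2, 5 at LHX1, 2 at NPHS1 and 0 at SALL1.

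SIX2, the homeodomain factor that marks nephron progenitors, had the weakest kidney promoter peak of the set. The peak at chr3:95458803-95459833, 451 bp upstream of the start site at its summit, had −log10 p of 3.85 in replicate 1 and 19.2 in replicate 2. It stood at percentile 6.65 of the kidney list with an IDR of 0.617, the highest value in that list. Nearly the same interval was a strong peak in other tissues. In skeletal muscle it had −log10 p of 65.0 and 105, percentile 94.9 and an IDR of 0.00141, and in heart 46.8 and 31.2, percentile 91.1 and an IDR of 0.00813. Lung had 5.43 and 74.8 (percentile 44.7) and spleen 9.36 and 37.2 (percentile 58.3), and in both of these lists replicate 2 was far above replicate 1. None of the 3 liver lists had a peak within 10 kb of SIX2. The other 2 kidney peaks of the locus were kidney-only and weak, at percentiles 8.37 and 29.7.

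WT1, a zinc-finger factor of the nephron progenitor and the podocyte, had its strongest kidney promoter peak at chr2:28411270-28411911, with −log10 p of 19.8 and 19.6, percentile 85.1 and an IDR of 0.00661. The overlapping spleen peak was of similar rank, with 41.3 and 41.4, percentile 90.4 and an IDR of 0.011. Promoter peaks in heart, lung, newborn liver and suckling liver stood at percentiles from 3.86 to 46.2, and skeletal muscle and adult liver had none. Kidney had 7 peaks at WT1 and spleen had 8. The 4 kidney-only peaks, 1 in an intron and 3 downstream of the gene, were weak, from percentile 6.52 to 51.9. Of 18 separate regions at WT1, 12 had no kidney peak.

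EYA1, the phosphatase and transcriptional partner of SIX2, had kidney peaks at 2 of its promoters. The stronger, chr4:64153887-64154744, had −log10 p of 21.8 and 19.0, percentile 84.5 and an IDR of 0.00832. Lung was close to it in rank at percentile 83.6, and promoter peaks were called in every list except adult liver. The kidney-only peaks lay within and behind the gene. An intronic peak at chr4:64000316-64000912 had −log10 p of 17.4 and 28.7 and percentile 82.7, and the nearest peak of another newborn list was 28222 bp away. A second, chr4:64219254-64219511, had 17.4 and 13.7 and percentile 76.8. Both had an IDR under 0.05, and the other 5 kidney-only peaks at EYA1 did not.

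OSR1, a zinc-finger regulator of the intermediate mesoderm from which the kidney derives, has an annotated span of 397 kb because some RefSeq transcripts start far upstream. This span held 39 of the 96 kidney peaks, so peak counts are also given without OSR1, and counts by its short transcripts. The kidney peak at the start of the short transcripts, chr3:118757884-118758506, had −log10 p of 11.8 and 12.2, percentile 72.4 and an IDR of 0.0288. Spleen had a peak there at percentile 68.0, and heart, lung and skeletal muscle had weaker ones. The kidney-only promoter peak of OSR1, chr3:118368756-118368903, belonged to a far upstream start site and stood at percentile 9.38. The strongest kidney peak of all 8 genes, chr3:118394354-118395454, lay in an intron of the long span, with −log10 p of 77.3 and 84.2, and was shared. Skeletal muscle, with the shortest list, had 22 peaks in the OSR1 span, more than any other list but kidney.

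**Figure D3:**
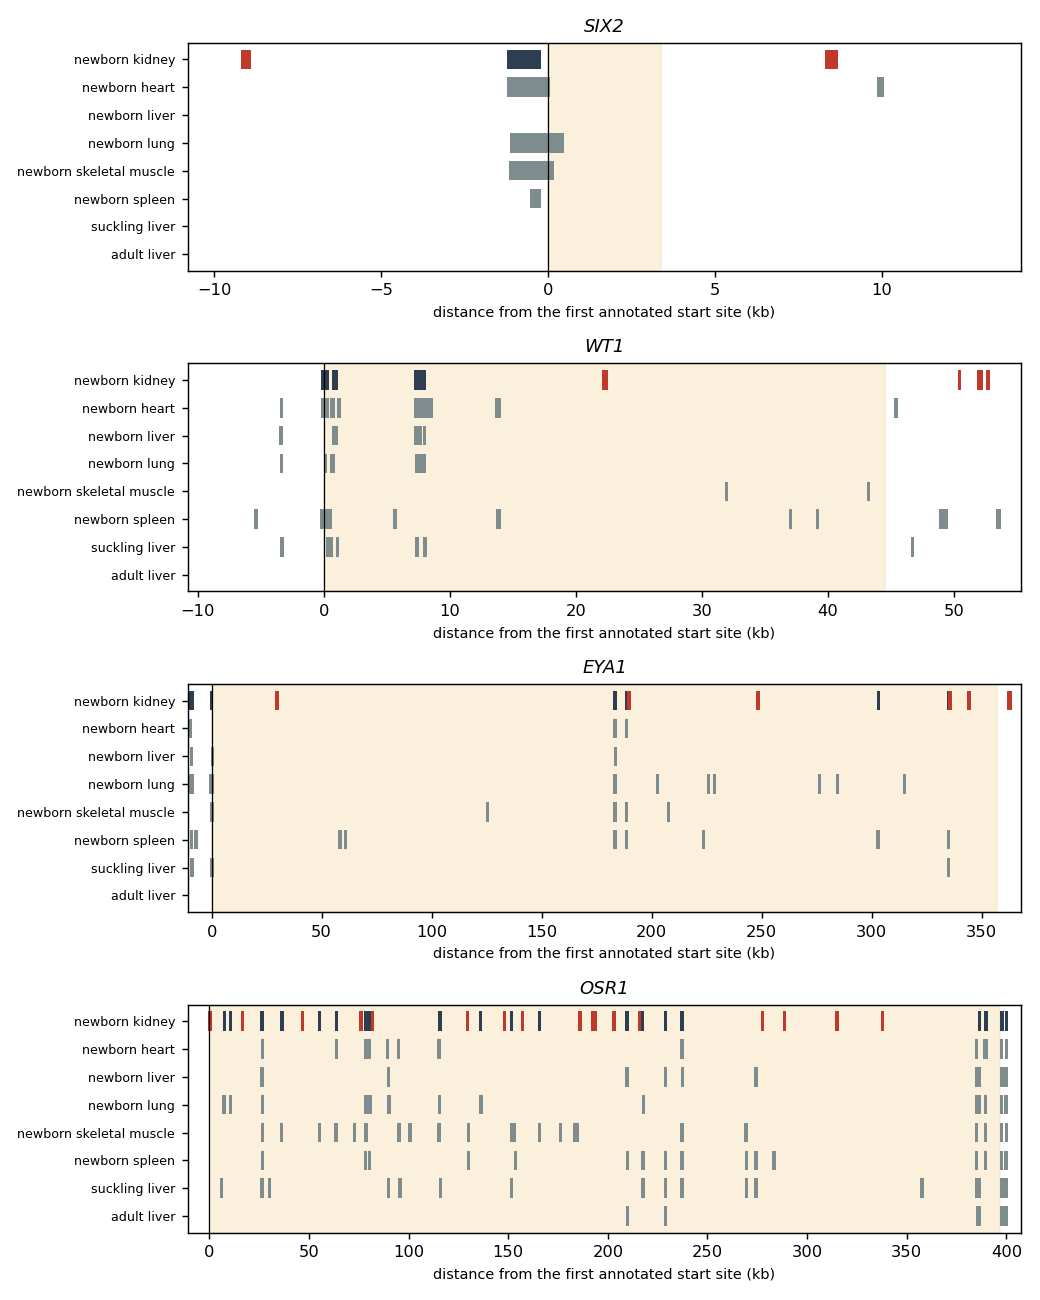
Peaks at SIX2, WT1, EYA1 and OSR1 in the 8 lists, drawn as distance from the first annotated start site (kb) with the gene shaded, kidney-only peaks in red, other kidney peaks dark and other lists grey. Narrow peaks are drawn wider than scale. The SIX2 promoter peak lines up in 5 lists, and the red bars at EYA1 and WT1 lie away from the start site.

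Counted by gene, 4 of the 8 (PAX2, LHX1, NPHS1 and OSR1) had a kidney-only promoter peak, against 7.88% of all protein-coding genes. Against all 7 other lists the count was again 4, and the share of all genes 6.22%. Among the top 57126 peaks of each list it was 2 (PAX2 and LHX1), against 3.22%. At an IDR of 0.05 it was 4 of 8 against 10.3%, with PAX2, OSR1, SALL1 and EYA1 as the genes, since shared peaks of other lists were then removed. With the narrow promoter it was 2 (LHX1 and NPHS1) against 4.8%. Kidney-only peaks anywhere within 10 kb were found at 7 of 8 genes, all but SALL1, against 54.9% of all genes. At an IDR of 0.05 this count was 5 against 47.1%, and among the top 57126 peaks 5 against 30.4%. Against all 7 other lists it stayed 7, against 49.1%. At 6 of the 8, all but WT1 and SALL1, kidney had more peaks than any other newborn list, against 24.2% of all genes. Among the top 57126 peaks this held for 3 against 7.69%, at an IDR of 0.05 for 5 against 32.7%, and against all 7 other lists for 6 against 15.1%. In the whole lists SIX2 had 3 kidney peaks against 2 in the highest other newborn list, and NPHS1 7 against 6. Without a flank SIX2 had 0 against 1, and with flanks of 50 kb NPHS1 had 19 against 23. A kidney promoter peak of any kind was kept at 5 genes at an IDR of 0.05 (56.1% of all genes) and at 6 among the top 57126 peaks (60.2%).

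Counted by peak, 49 of the 96 kidney peaks were kidney-only, or 51.0%, against 30.9% of the 92317 kidney peaks at all protein-coding genes. Without OSR1 the count was 31 of 57, or 54.4%. Kidney had 96 peaks at the 8 genes, suckling liver 51, newborn liver 39, spleen 38, lung 36, skeletal muscle 32, heart 31 and adult liver 22. Set against list length, kidney had 7.20 peaks at these genes per 10000 listed, and the other lists from 2.02 in adult liver to 5.60 in skeletal muscle. Among the top 57126 peaks of each list, however, skeletal muscle had 32 and kidney 29, followed by lung and spleen with 26 each. Of these top peaks, OSR1 held 22 of the 32 in skeletal muscle and 10 of the 29 in kidney. Without OSR1 the whole lists, which differ in length, held 57 peaks in kidney and 10 in skeletal muscle.

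**Figure D4:**
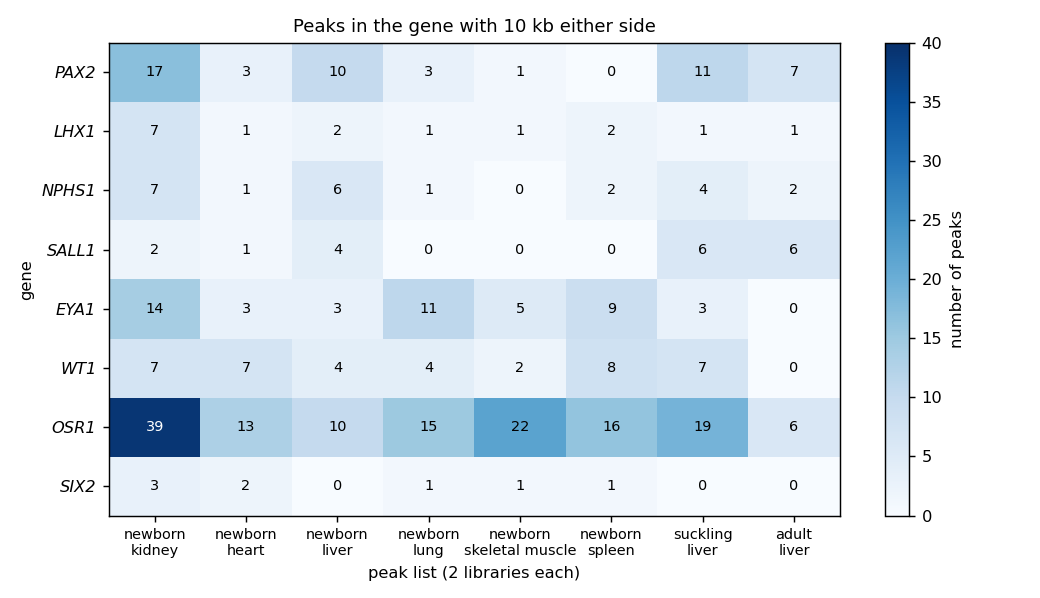
Number of peaks in each gene with 10 kb either side (rows) in each list (columns). Kidney has 17 peaks at PAX2 and 39 at OSR1, and skeletal muscle has 22 at OSR1.

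Most kidney peaks at these genes were weak calls. The median percentile was 41.5 over the 96 peaks, against 51.4 for kidney peaks at all protein-coding genes. It was 36.4 for kidney-only and 46.3 for shared peaks, where all loci gave 32.6 and 61.4. An IDR of 0.05 or lower was reached by 22 of the 96, or 22.9%, against 35.6% at all loci. The highest IDR of the list was assigned to 41 of them, or 42.7%, against 31.7% of the whole list. The strongest promoter peak of each gene in kidney had a median percentile of 72.1, against 89.8 over all genes with one. Of the 49 kidney-only peaks, 5 had an IDR of 0.05 or lower. These were the upstream and intronic peaks of PAX2, the intronic pair at EYA1, and an intronic peak at OSR1, chr3:118516470-118517022, with −log10 p of 9.78 and 11.5.

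**Figure D5:**
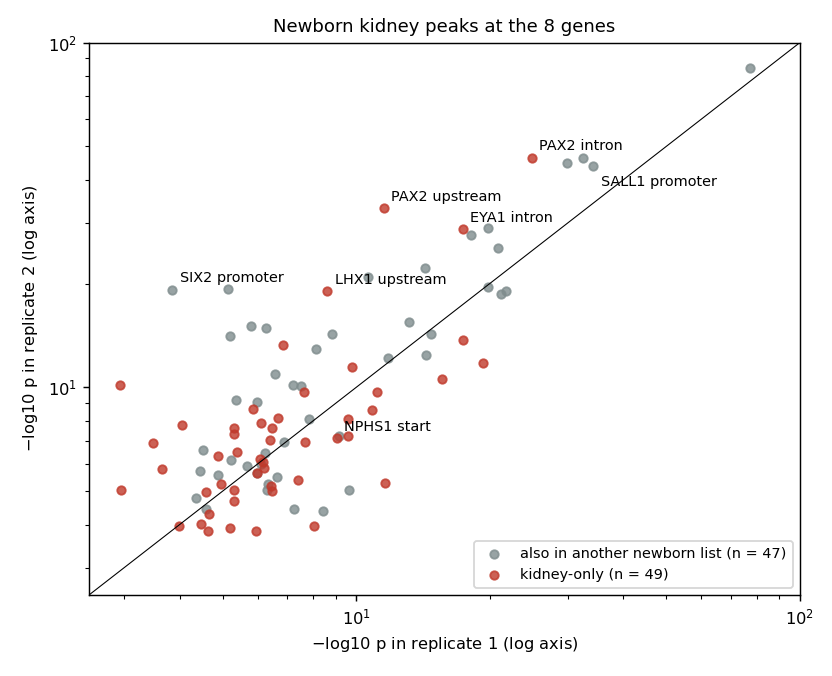
The −log10 p of each of the 96 newborn kidney peaks at the 8 genes in replicate 1 and replicate 2, on log axes with the line of equality, and 49 kidney-only peaks in red. The SIX2 promoter lies far above the line with 3.85 and 19.2, while the PAX2 intronic peak is high in both.

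By the place of the summit, most kidney-only peaks lay in introns. Of 61 intronic kidney peaks 37 were kidney-only, of 15 upstream peaks 6, of 14 downstream peaks 6, and of 6 peaks centred on an exon none. The kidney-only share was thus 60.7% for introns, 40% upstream and 42.9% downstream. OSR1 alone held 34 of the 61 intronic peaks, 18 of them kidney-only. Over all kidney peaks, 36.8% of those centred on an intron of a protein-coding gene and 17.0% of those centred on an exon were kidney-only. Of those centred outside genes 36.25% were kidney-only, close to the upstream and downstream shares given here. The NPHS1 promoter peak counts as upstream by its summit, although it reaches past the start site. Kidney-only peaks were narrower, with a median width of 344 bp against 572 bp for shared peaks, as over the whole kidney list (291 and 467 bp). Their median distance to the nearest peak of another newborn list was 5642 bp, and 10 of the 49 lay within 1000 bp of one. The median GC content was 59.4% in the 96 peaks and 53.6% in all kidney peaks.

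Matches to motifs of the regulators themselves were rare within 100 bp of the summits, on either strand. The PAX consensus GTCACGC was present in 3 of the 96 peaks (3.13%, against 1.10% of all kidney peaks) and the WT1 consensus, GCGTGGGAG or GCGGGGGCG, in 2 (2.08% against 1.34%). The SIX2 consensus TCANGTTTC was in 0 peaks against 0.825%, HNF1 (GTTAATNAT) in 1 against 1.41%, LHX (TAATTA) in 2 against 3.32%, and OSR (GCTACTG) in 1 against 2.07%. The more general motifs TEAD (CATTCC) and AP1 (TGANTCA) were in 6 and 3 peaks, or 6.25% and 3.13%, against 12.0% and 6.91%. Over whole peaks the shares came closer to those of all kidney peaks for TEAD (22.9% against 24.6%), AP1 (10.4% against 13.9%) and PAX (3.13% against 2.64%). They moved further apart for OSR (1.04% against 4.72%) and SIX2 (0% against 1.87%). A match is only a run of letters and says nothing of binding, and with so few peaks none of these shares can be ordered.

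Genes whose promoter pattern over the 8 lists came nearest to each of these, by Euclidean distance between 16 within-list percentiles, were named for members with a promoter peak in under 6 lists. They were SLC5A12 and GCNT7 for PAX2 (distances 4.34 and 5.24), MROH6 and CUBN for LHX1 (7.53 and 9.004), and KCNA6 and SLC7A3 for NPHS1 (3.80 and 4.01). All of these had a promoter peak in kidney alone. For SIX2, SALL1 and OSR1 no gene came nearer than 69.1, 67.6 and 60.3. These members had promoter peaks in more lists, and so more values that can differ. Their distances cannot be set beside those of the kidney-alone genes.

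Other genes of the kidney's cell types were counted in lists by role, beside the 75.1% of all genes with a kidney promoter peak and the 7.88% with a kidney-only one. Among 11 further nephron progenitor genes all 11 had a kidney promoter peak and 3 a kidney-only one. In the other lists, from 4 (adult liver) to 7 (lung and spleen) of the 11 had a promoter peak. HOXA11, a patterning gene of the metanephric mesenchyme, had −log10 p of 5.64 and 12.0, and those of HOXD11 and the growth factor gene FGF8 were under percentile 1. Among 18 further podocyte genes 17 had a kidney promoter peak and 4 a kidney-only one. LMX1B had no kidney promoter peak, but 11 kidney-only peaks in the gene with 10 kb either side. Promoter peaks were also called at 16 of the 18 in newborn and suckling liver, and at 14 in heart, lung and spleen. Skeletal muscle had them at 12 and adult liver at 11. The strongest kidney-only promoter peak among the podocyte genes was at SYNPO, which encodes the actin-binding synaptopodin, with 14.1 and 34.9 and an IDR of 0.00871. PTPRO, a phosphatase of the podocyte surface, followed with 15.8 and 11.3, and the kidney-only peak at MAGI2 stood at percentile 57.0. Among 11 segment patterning genes 9 had a kidney promoter peak, DLL1 and IRX1 had none, and 3 (NOTCH2, ESRRG and IRX2) had a kidney-only one. Lung also had a promoter peak at 9 of the 11, and the remaining lists had one at 6 to 8.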

How the data were processed

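ATAC-seq peaks of 16 libraries in 8 groups of 2 were used as deposited. By the study's methods, the authors aligned reads to Sscrofa11.1 with Bowtie2, used SAMtools (version 1.3.1) to drop duplicates and reads that were mitochondrial or of low quality, called peaks per replicate with MACS2, and merged replicates by IDR at default settings. The deposited −log10 p per replicate is MACS2's, and the smaller value ranks peaks. The deposited score is the scaled IDR, capped at 1000, with 540 at an IDR of 0.05. The deposited other columns hold −log10 of the IDR, and lists were not filtered on it. Library depth is not part of the lists and was not used here, and no detection limit was computed.

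Genes, start sites and exons came from RefSeq for Sscrofa11.1, and bases from that assembly. Positions count from 1. Overlap required 1 bp. Python (3.11.15), pandas (2.3.3), numpy (2.4.6) and matplotlib (3.10.9) were used, and the counting was tested on simulated peaks. Members and lists were chosen with earlier results of these data known. All members are named, and of each companion list up to 6 genes with a kidney-only promoter peak and up to 3 without a kidney promoter peak; a few of these are not reported here. Alternatives changed the IDR limit, list length, promoter, flank, overlap, lists compared, replicate and motif window.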

Additional observations from a re-analysis of the deposited data

How the results depend on the processing

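No test between groups was made, since counts come from 1 merged list per group and the −log10 p of a replicate depends on its depth. No paired analysis was possible because the result comes from no test. Of 55 values recomputed under alternatives, 28 stayed within 1.5 times the reported count and 27 did not. A change of direction was not scored. With an IDR of 0.05 or lower, 5 genes had a kidney promoter peak, kidney peaks fell to 22 and kidney-only peaks to 15. The other lists were filtered as well, so peaks shared in the whole lists, such as both kidney peaks at SALL1, then counted as kidney-only. Of the peaks that were kidney-only in the whole lists, 5 passed this limit. No matching share over all protein-coding genes is given, so the 15 cannot be read as greater specificity. With the top 57126 peaks of each list there were 29 kidney peaks, 14 of them kidney-only, 2 genes with a kidney-only promoter peak, and 3 genes with most peaks in kidney. These settings keep fewer peaks by construction. The narrow promoter left 2 genes with a kidney-only promoter peak (LHX1 and NPHS1). Flanks of 50 kb gave 150 kidney peaks and 74 kidney-only ones. OSR1 by its short transcripts, an alternative chosen after seeing the data, left 62 and 31. It left 3 genes with a kidney-only promoter peak, 6 with a kidney-only peak within 10 kb and 5 with most peaks in kidney. The shares of all genes under the main setting were 7.88%, 54.9% and 24.2%. OSR1 itself then had 5 kidney peaks against 5 in the highest other newborn list, and 0 kidney-only peaks. Ranking equal numbers of peaks by 1 replicate alone gave from 5 to 7 genes with a kidney promoter peak and 1 to 2 with a kidney-only promoter peak. It gave 4 to 6 genes with a kidney-only peak within 10 kb, 8 to 15 kidney-only peaks, and 29 kidney peaks in either case. In either case 3 genes had most peaks in kidney. Shares over all genes were not computed for these rankings, so these counts cannot be set beside those of other genes. PAX2 kept its kidney-only promoter peak by either replicate, LHX1 by replicate 2 alone, and NPHS1 by neither. Over whole peaks, WT1 motif matches rose to 4 (4.17%, against 3.59% of all kidney peaks), HNF1 to 3 (3.13% against 2.31%), LHX to 5 (5.21% against 7.58%), TEAD to 22 (22.9% against 24.6%) and AP1 to 10 (10.4% against 13.9%).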

Other observations

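The remaining lists were counted in the same way. Among 12 ureteric bud genes, which belong to the epithelium that becomes the collecting duct, all 12 had a kidney promoter peak and 4 a kidney-only one. In the other lists, from 5 (spleen) to 10 (newborn liver) of the 12 had a promoter peak. The kidney-only peak at EMX2, a homeobox gene of the bud, reached 20.7 and 33.5 in the replicates on the −log10 p scale, with an IDR of 0.002, above the promoter peaks of PAX2, LHX1 and NPHS1 in rank. Those at WNT11, TFAP2B and GATA3 stood at percentiles from 37.6 to 56.4. Among 7 renal stroma genes all 7 had a kidney promoter peak, and so they did in lung and in newborn, suckling and adult liver. All 6 endothelial genes had a kidney promoter peak and none a kidney-only one. Every other list also had a promoter peak at all 6, except skeletal muscle with 4.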
